A study of Mus musculus with 14 samples.

Results

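The FGF receptor and feedback loci are 6 windows of the mouse genome, laid around the genes Fgfr1, Fgfr2, Spry1, Spry2, Etv5 and Dusp6, in which SOX10 binding regions from a mammary tumor model were counted. The windows were fixed by their mm9 coordinates, and a region was a member where it overlapped a window by at least 1 bp. No measured value entered this rule, but the 6 genes were chosen with earlier results of these data known. The windows together held 35 of the 7929 regions in the deposited list. All 6 windows held at least 1 region, so no locus was empty, but the Dusp6 window alone held 18 of the 35. Of the same-size windows on the chromosome of each locus, 35.1% (Spry2) to 47% (Dusp6) held any region.

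The list came from PY230 tumors, which grew from PY230 mouse mammary tumor cells transplanted into syngeneic C57BL6J adult mice and were then dissected and sorted. The SOX10 ChIP group (2 samples) was made from cells with SOX10-AVI/BirA, that is, SOX10 fused to a tag that the enzyme BirA marks with biotin. The control group (1 sample) was made from control cells, whose constructs the labels do not describe further. Both groups used 500000 cells per sample, streptavidin beads and extra washes with 2% SDS, so the pull-down step was shared by control and ChIP samples. As a model the groups rest on 1 cell line and on a tagged SOX10, and the promoter that drives it is not given in the sources used here. Whether the ChIP samples came from separate tumors is not stated either. The list is 1 result for both ChIP samples against the control, which leaves all values without a replicate error.

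FGF receptors are tyrosine kinases at the cell surface that pass the signal of fibroblast growth factors to the RAS-MAP kinase pathway. The ETS factor Etv5 is a known transcriptional output of that pathway, while the Sprouty proteins and the phosphatase Dusp6 are induced by it and dampen it, which makes them feedback inhibitors. In the mammary gland FGF signalling is known for its part in the formation and branching of the epithelium, and SOX10 is an HMG-box transcription factor best known from the neural crest.

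In the figures and values below, signal is the number that the authors deposited for each region, in a unit that is not stated. Signal times region width came out as a whole multiple of 0.0479 (within 0.05 of a whole multiple) in 99.8% of 7282 regions under 1500 bp with a signal above 0. In 39.2% of them the multiple was itself a multiple of 54. Both numbers were picked from these same values. The step of 0.0479 was fitted to them, and 54 gave the most multiples among lengths from 40 to 70. The share that chance would give was not computed. Signal times width, divided by 0.0479 and by 54, is given as read equivalents, which are a reading of the values and not reads counted by the authors. The median region of the list had 7.5 read equivalents and a signal of 0.0280 (quartiles 0.0200 and 0.0374). The depth of the libraries is unknown, as is whether the control was subtracted. With 65 regions listed at a signal of 0, read equivalents cannot be taken as the number of reads behind a region.

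Promoter sequences of 5 of the 6 genes were found in the RefSeq table used here, which is of GRCm38.p6 and not of the build of the region list. Those of Dusp6 and Spry2 are shown, since the Dusp6 window held the most regions and Spry2 was the other gene whose promoter held a SOX-type core. Each is the 250 bases before the start, and its coordinates are those of GRCm38.p6 and cannot be set beside the mm9 positions below. The letters searched on both strands were ACAAAG, a core known from SOX factors, then the variant spelled ACAATG, and last the shorter ACAAT, which is contained in that variant. Capitals mark a match.
Dusp6 (chr10:99262981-99263230, forward strand): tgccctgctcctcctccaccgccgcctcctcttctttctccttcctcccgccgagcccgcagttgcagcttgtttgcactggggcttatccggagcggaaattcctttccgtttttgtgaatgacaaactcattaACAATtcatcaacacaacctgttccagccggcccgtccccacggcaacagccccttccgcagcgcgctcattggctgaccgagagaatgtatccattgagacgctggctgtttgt
Spry2 (chr14:105896820-105897069, reverse strand): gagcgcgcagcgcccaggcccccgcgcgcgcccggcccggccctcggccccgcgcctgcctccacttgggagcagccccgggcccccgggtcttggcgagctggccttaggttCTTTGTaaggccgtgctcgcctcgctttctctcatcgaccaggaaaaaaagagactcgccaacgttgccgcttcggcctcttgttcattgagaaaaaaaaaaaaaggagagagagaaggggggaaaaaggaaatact
The Dusp6 promoter held ACAAT once, beginning 115 bases before the start. The Spry2 promoter held ACAAAG once, on the opposite strand as CTTTGT, beginning 137 bases before the start. Among 32851 promoters of the table, 27.7% held ACAAT, 16.5% held ACAAAG and 10.7% held ACAATG in the same 250 bases. The promoters of Fgfr2, Spry1 and Etv5 (2 starts) held none of these letters in this window, which says nothing about binding. A match is a description of letters and not a site.

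**Figure D1:**
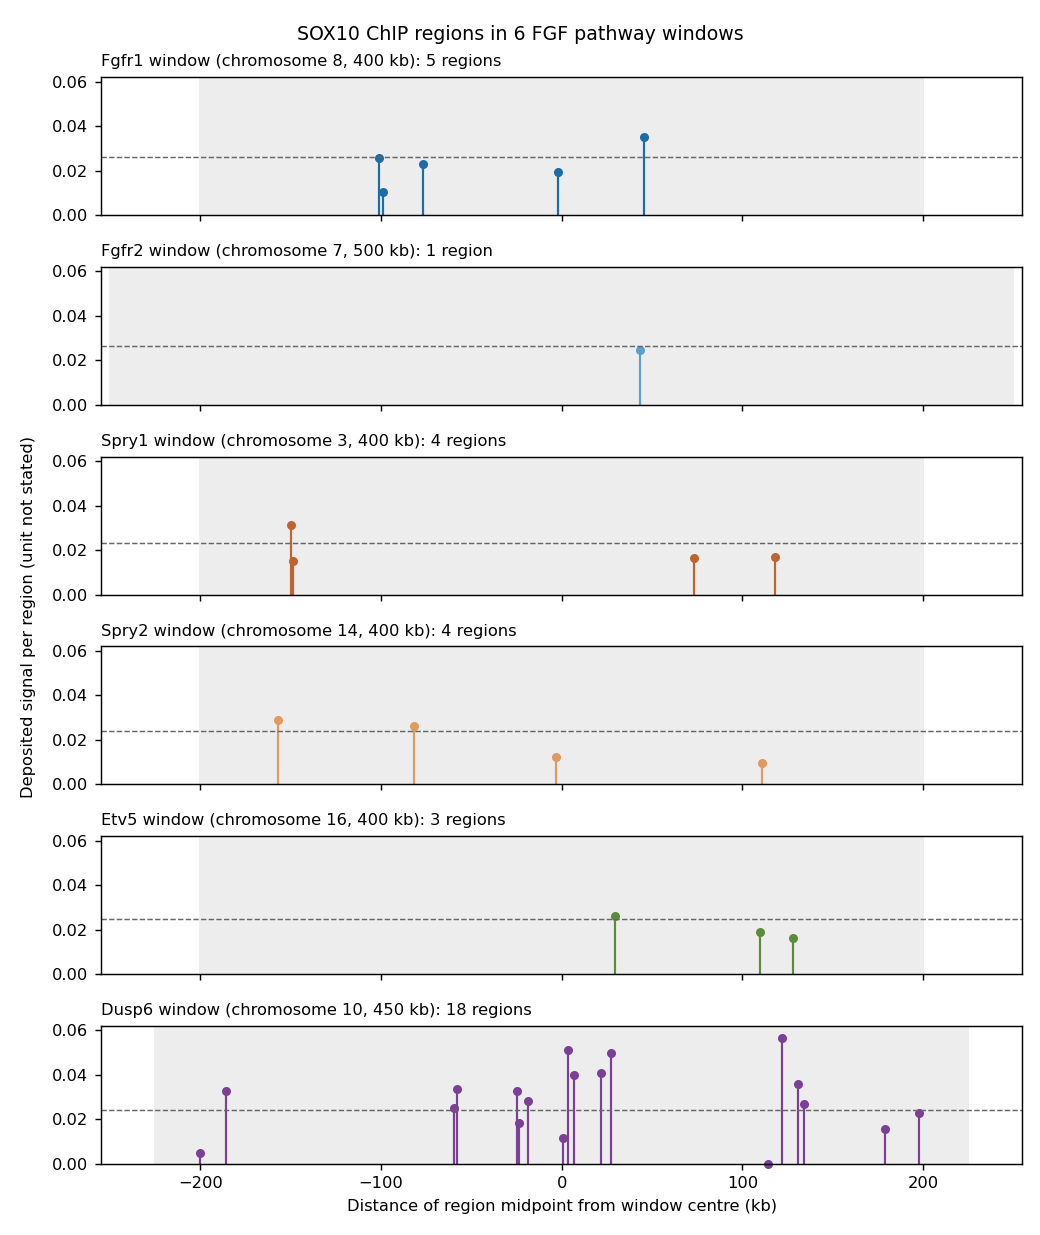
Signal of each SOX10 ChIP region (y axis, unit not stated) against the distance of its midpoint from the centre of the locus window (x axis, kb), for the 6 windows. Grey marks the window and the dashed line the median signal of the chromosome. The Dusp6 window holds 18 regions with a highest signal of 0.0565, and the Fgfr2 window holds 1 region at 0.0247.

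The receptor windows held different numbers of regions. The Fgfr1 window (chr8:26450001-26850000) held 5 regions, which is 12.5 per Mb against 2.53 per Mb on chromosome 8. Of 324 adjoining windows of 400 kb on that chromosome, the Fgfr1 window included, 17 held at least 5 regions, a background of 5.25%, and 40.4% held any. In 500 kb the Fgfr2 window (chr7:137100001-137600000) held 1 region, or 2 per Mb, close to the 2.15 per Mb of chromosome 7. Of 304 windows of that size, 127 or 41.8% held at least 1, so a single region there was no more than the chromosome gave. Fgfr1 and Fgfr2 thus had 4.95 times (95% exact Poisson interval 1.61 to 11.5) and 0.929 times (0.0235 to 5.18) the number their chromosomes gave for the length. The intervals cover counting error only, and they are too narrow because neighbouring regions are not independent. They overlap, but the receptors were not tested against each other, so no difference in density between them is claimed.

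Of the 5 Fgfr1 regions, 3 lay on one side of the window centre within 24.6 kb of each other, 1 lay near the centre and 1 beyond it. The strongest (chr8:26694652-26695948, 1297 bp) had a signal of 0.0353, rank 79 of the 328 regions on chromosome 8. At 17.7 it also had the most read equivalents of the locus. It was the only Fgfr1 region above the upper quartile of its chromosome (0.0348). Next came chr8:26548670-26549075 with a signal of 0.0255 and 4 read equivalents, just under the chromosome median of 0.0259. Its neighbour 1.33 kb further on, chr8:26550411-26551922, was the widest of the locus at 1512 bp and the weakest at 0.0103. These formed the only pair less than 10 kb apart at this locus. The remaining regions, chr8:26572976-26573248 and chr8:26647359-26648128, had signals of 0.0231 and 0.0193. No further region followed the strongest for 1170 kb. The single Fgfr2 region, chr7:137393122-137393728, was 607 bp wide with a signal of 0.0247 and 5.8 read equivalents, below the chromosome 7 median of 0.0263. It stood alone, with the nearest other region 382 kb away on one side and 2320 kb on the other.

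The Sprouty loci had the same number of regions but not the same spacing. Spry1 and Spry2 encode intracellular inhibitors of receptor tyrosine kinase signalling. The Spry1 window (chr3:37350001-37750000) held 4 regions, 3.75 times (1.02 to 9.6) the number from chromosome 3, and 9.51% of 389 windows of 400 kb held as many. The Spry2 window (chr14:106100001-106500000) also held 4 regions, 4.77 times (1.3 to 12.2) the number from chromosome 14, where 7.14% of 308 windows held as many. Any region at all was held by 42.4% of those windows on chromosome 3 and 35.1% on chromosome 14. At Spry1, regions chr3:37399517-37400635 and chr3:37400866-37401805 were 0.23 kb apart, with signals of 0.0313 and 0.0150. The first of them was the strongest and widest of the locus (1119 bp, 13.6 read equivalents). The other Spry1 regions, chr3:37623083-37623704 and chr3:37668330-37668530, had signals of 0.0166 and 0.0167, close to the lower quartile of chromosome 3 (0.0164), and the last of them stood for 1.3 read equivalents in 201 bp.

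No Spry2 region had a neighbour within 10 kb inside the window, as the gaps between them ran from 74.4 to 114 kb. Their signals were 0.0288, 0.0260, 0.0122 and 0.0095 in the order of position, so that 2 lay above the chromosome 14 median of 0.0239 and 2 below its lower quartile of 0.0167. The strongest, chr14:106143409-106143546, was the narrowest member of all at 138 bp and stood for 1.54 read equivalents. The widest, chr14:106296451-106297507 (1057 bp), lay 3.02 kb from the window centre with a signal of 0.0122. None of the 4 Spry2 regions reached 6 read equivalents: the most was 5.98, in chr14:106217984-106218578. The window of 400 kb just before it on chromosome 14 held 5 regions, 1 more than the Spry2 window itself.

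Etv5 encodes an ETS transcription factor downstream of FGF receptors. Its window (chr16:22200001-22600000) held 3 regions, 3.26 times the number from chromosome 16 (Poisson interval 0.672 to 9.52). Of 244 windows 12.3% held as many, while 37.3% held any. The interval takes in 1. At the loci where it does not, it is no test of an excess either, because regions lie in groups. All 3 Etv5 regions lay on the same side of the window centre and were wide, from 840 to 1434 bp. The widest was also the strongest (chr16:22428771-22430204), with a signal of 0.0259 and 14.4 read equivalents, just above the chromosome median of 0.0249. The other regions, chr16:22508945-22510271 and chr16:22527403-22528242, lay 17.1 kb apart and had signals of 0.0188 and 0.0160.

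Dusp6 encodes a cytoplasmic phosphatase that inactivates the MAP kinase ERK. Its window (chr10:98500001-98950000) held 18 regions in 450 kb, or 40 per Mb against 3.28 per Mb on chromosome 10. This was 12.2 times (7.22 to 19.2) the number from the chromosome, where 1.48 regions would fall in a window of this size. Of 283 adjoining windows of 450 kb on chromosome 10, itself included, only the Dusp6 window held 18 or more. The share of 0.353% is thus the Dusp6 window alone and the lowest that this count of windows can give. The next window of that grid held 14 regions, the median window held 0, and 47% held any. The regions covered 3.59% of the Dusp6 window, against 0.254% of chromosome 10 and between 0.121% (Fgfr2) and 1.06% (Fgfr1) of the other windows.

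**Figure D2:**
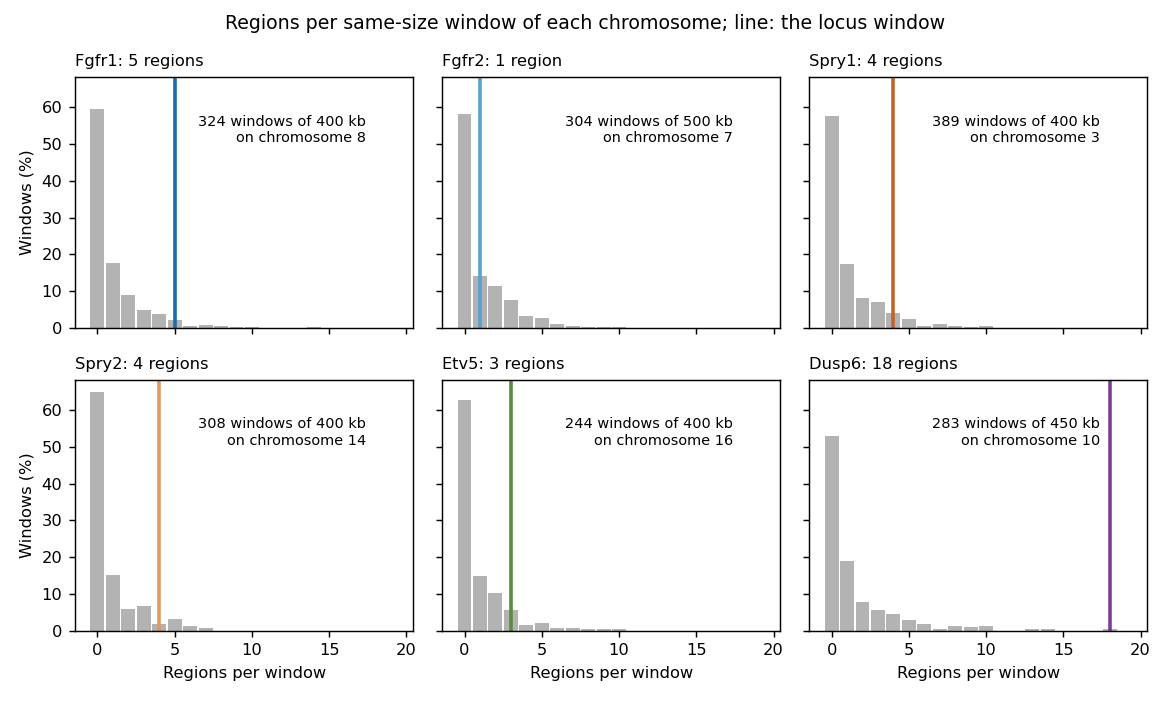
Share of adjoining same-size windows (y axis, percent) by the number of regions they hold (x axis), for the chromosome of each locus, with a coloured line at the locus window. The Dusp6 line at 18 lies past all other windows of chromosome 10 on this grid, and the Fgfr2 line at 1 lies within the bulk of chromosome 7.

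The rank of Dusp6 depended on where windows begin. With windows moved along chromosome 10 in steps of 50 kb, 5 of 2555 held 18 or more regions. Of these 5, 2 overlapped the Dusp6 window, and the others belonged to another stretch (chr10:110950001-111400000) that held 22 regions. Its median signal was 0.0220 (quartiles 0.0194, 0.0296) and its highest 0.0453, against 0.0306 (0.0195, 0.0388) and 0.0565 in the Dusp6 window. Dusp6 had therefore fewer regions than the densest stretch of its chromosome and a higher median. Over all 20 chromosomes, 11 of 5796 windows of 450 kb (0.19%) held 18 or more, and 8 of them held more. On chromosomes 4 and 11 there were 7 of the 11, with median signals from 0.0430 to 0.0546. The others lay on chromosomes 8, 10 and 15, where Dusp6 had the lowest median of the 11 (0.0306, against 0.0327 on chromosome 8 and 0.0341 and 0.0407 on chromosome 15).

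The 18 Dusp6 regions fell into 4 stretches separated by gaps of over 40 kb. The main one (chr10:98664888-98753010) held 10 regions in 88.1 kb around the window centre, with a median signal of 0.0332, and 6 of the 10 exceeded the upper quartile of chromosome 10 (0.0310). It was preceded by a gap of 125 kb. Beyond a gap of 86 kb came 4 regions in 20.9 kb (chr10:98838976-98859917), with a median of 0.0314 and signals from 0 to 0.0565. At the ends of the window lay 2 regions each, with median signals of 0.0190 and 0.0192. Signals were mixed in the inner and the outer stretches. Of the first 2 regions of the window 1 reached 0.0329, above the upper quartile of the chromosome, while neither of the last 2 exceeded its median of 0.0243. The inner stretches held the 3 highest signals and also regions at 0, 0.0116 and 0.0184.

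The strongest Dusp6 region, and the strongest of all 35, was chr10:98846792-98847888 (1097 bp), with a signal of 0.0565 and 24 read equivalents. It ranked 4 of 421 on chromosome 10 and 374 of 7929 in the list. The next was chr10:98727501-98729010 (signal 0.0512), which was also the widest of the locus at 1510 bp and had the most read equivalents at 29.9. It lay 3.25 kb from the window centre and ranked 9 on the chromosome. The third was chr10:98752073-98753010 (signal 0.0496, 18 read equivalents, rank 12). These 3 were the only ones of the 35 members in the top 10% of the list by signal, close to the share set by that cut (792 of 7929). Of the 421 regions on chromosome 10, 14 ranked there, and 11 of these lay outside the Dusp6 window. No member belonged to the top 1%, which holds 79 regions.

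Each of the strong regions had company. The region of 1510 bp sat in a group of 3 within 7.19 kb, between chr10:98724795-98726206 (signal 0.0116) and chr10:98731137-98731980 (signal 0.0398). The region at 0.0496 had a neighbour 4.87 kb away, chr10:98746482-98747198, at 0.0406. Another group of 3 within 7.26 kb lay before the centre, with signals of 0.0329, 0.0184 and 0.0284 (chr10:98699646-98700443, chr10:98701097-98701658 and chr10:98706113-98706908). A pair 1.12 kb apart, chr10:98664888-98665649 and chr10:98666767-98667114, had signals of 0.0249 and 0.0336. Regions so close may be separate sites or parts of one, which the list leaves undecided.

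The run of 4 regions around the strongest one was uneven. Its first region, chr10:98838976-98839449, was listed at a signal of 0, the only such member. The list has 65 regions at 0, or 0.82%. After the strongest came chr10:98855442-98856089 and chr10:98858465-98859917, with signals of 0.0359 and 0.0269. Runs of 4 or more regions less than 10 kb apart numbered 11 among the 309 runs and single regions of chromosome 10, and 129 among 6131 in the list. In all, 14 of the 18 Dusp6 regions (77.8%) had a neighbour within 10 kb, against 40.4% of the 403 other regions of chromosome 10. In the densest stretch of that chromosome (chr10:110950001-111400000) it was 18 of 22 (81.8%), so close neighbours were not particular to Dusp6. At the other 5 loci it was 4 of 17 (23.5%), with 38.1% in the whole list. These shares were described and not tested. Counted as runs, the 18 regions made 9 units, and 2 of 283 windows on the chromosome (0.707%) held as many units.

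The 4 outer regions of the Dusp6 window stood alone. The first of the window, chr10:98525098-98525611, was the weakest member above 0, with a signal of 0.00503 that amounts to 1 read equivalent. It was followed 13.2 kb on by chr10:98538777-98539719 at 0.0329. At the far end, chr10:98903600-98904923 and chr10:98922032-98923052 had signals of 0.0156 and 0.0228.

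**Figure D3:**
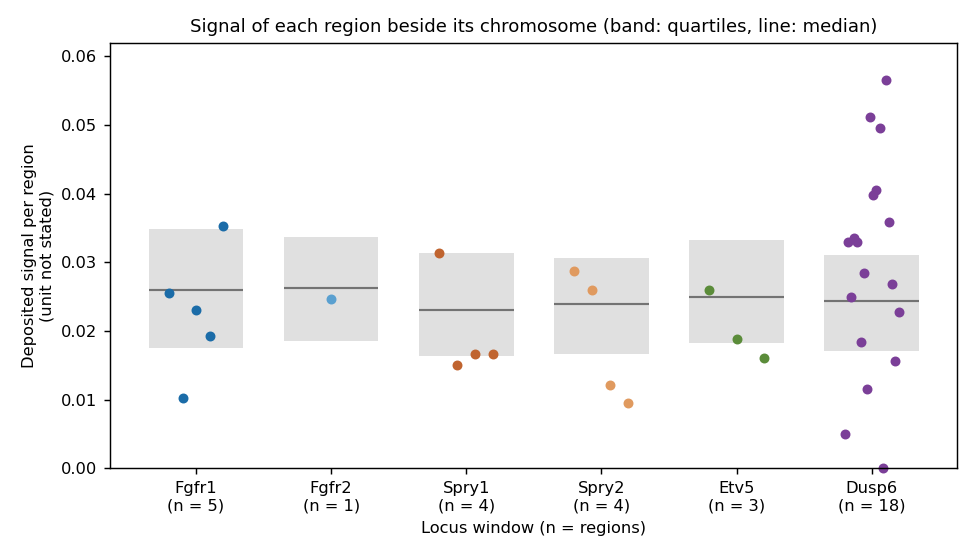
Deposited signal of every region (points, y axis, unit not stated) in each locus window (x axis, n = regions), with the quartiles (grey band) and median (line) of all regions on the same chromosome. Of the 18 Dusp6 points, 9 lie above the band, and of the 17 points at the other loci 1 does.

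Signals at Dusp6 overlapped those of the other loci but reached higher. Of its 18 regions, 12 were above the median of chromosome 10 and 9 above its upper quartile, while 4 were below its lower quartile of 0.0171. At the other loci 5 of 17 regions exceeded the median of their own chromosome. These were 2 at Spry2 and 1 each at Fgfr1, Spry1 and Etv5. Against the whole list, 10 of 18 Dusp6 regions (55.6%) and 3 of the other 17 (17.6%) lay above the median of 0.0280. Above the upper quartile of the list (0.0374) lay 5 of the 18 (27.8%), close to the 25% set by that cut, and 0 of the 17. The median over those 17 was 0.0193 (range 0.0095 to 0.0353). In read equivalents the Dusp6 regions had a median of 9 and summed to 191, against sums of 35.9 at Fgfr1, 29.3 at Etv5, 24.3 at Spry1, 14.5 at Spry2 and 5.8 at Fgfr2. Of all 35 regions, 24 (68.6%) had fewer than 10 read equivalents, close to the 64.6% of the whole list. The regions share their libraries, and those of a locus lie side by side, so they are not replicates and these differences carry no test.

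**Figure D4:**
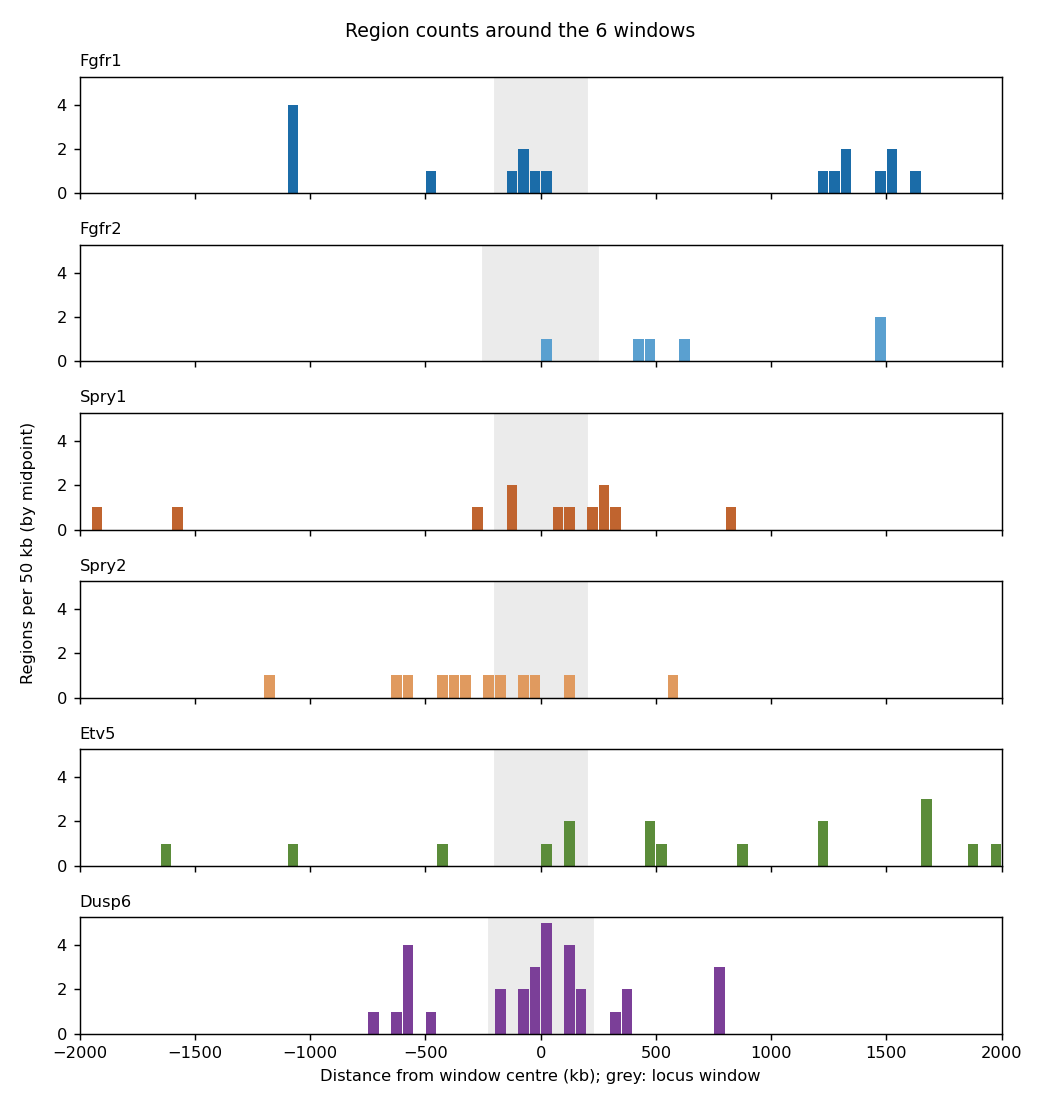
Number of regions per 50 kb by midpoint (y axis) within 2000 kb on each side of the window centre (x axis, kb), with the locus window in grey. The highest bar of all 6 loci is the 50 kb bin at the Dusp6 centre with 5 regions. At Fgfr1 and at Dusp6 a bin outside the window holds 4.

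The surroundings of the loci held fewer regions than the locus window in some cases and as many or more in others. The windows of 450 kb adjoining Dusp6 held 6 regions before and 3 after, against 18 in the window and 1.48 for a window of this size at the density of chromosome 10. Over the 2 Mb before and after it there were 7 and 6 regions, or 3.5 and 3 per Mb, so that 6 of the 7 before lay in the adjoining window. The nearest regions outside lay 246 kb before and 89 kb after the Dusp6 window, with signals of 0.0188 and 0.0130. Around Fgfr1 the adjoining windows of the same size held 1 and 0 regions. Around Fgfr2 they held 0 and 3, around Etv5 1 and 3, and around Spry1 1 and 4. Spry2 had 5 before and 1 after, with the nearest of those 5 just 2.84 kb outside. At Fgfr2, Spry1, Spry2 and Etv5 an adjoining window thus held as many regions as the locus window or more, and at Fgfr1 and Dusp6 neither did.

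Which gene a region belongs to was not determined, because the gene table at hand is of another build. In that table, GRCm38.p6, the protein-coding neighbours of Dusp6 are Poc1b and Csl, with Galnt4 and Kitl as the next. Kitl encodes the ligand of the receptor tyrosine kinase KIT. Fgfr1 is followed by Letm2 and Nsd3, with Tacc1 on the other side beyond the predicted gene Gm39147. Fgfr2 stands between Wdr11 and Ate1, Spry1 between Spata5 and Gm5148, Spry2 between Ndfip2 and Trim52, and Etv5 between Tra2b and Dgkg. Whether these neighbours lie within the windows was not determined.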

How the data were processed

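The 3 samples that bear on these loci are the SOX10 ChIP samples (2) and the control (1) from PY230 tumors, of 14 samples in the series. The others were not used here. Chromatin was profiled by ChIPmentation, in which a transposase inserts the sequencing adapters on the beads. Per the submitters' processing notes, FastQC, Bowtie 0.12.8, SAMtools 1.3.1, MACS2 2.1.1 and the build mm9 are named, with roles and parameters not given in the sources used here. The authors deposited 1 list of regions with a signal value each and no header. The calling threshold, the treatment of duplicates and the signal formula are not given, and the depth is unknown.

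Regions were counted in the 6 windows and in adjoining windows of the same size, from the chromosome start to the last region end, with Python 3.11.15, pandas 2.3.3 and SciPy 1.17.1. The counting was tested on simulated regions. Starts are written 1-based. Windows were ranked, with the locus window among those counted in each share, and no chance test was made, since regions lie in groups. The genes named are the 6 members, with neighbours by adjacency, and every region in the windows is reported. The 6 members and all choices were made with earlier results of these data known. Planned distances to transcription start sites, a list of FGF pathway genes and a motif search in the regions were not run, because no mm9 annotation or sequence was used here. Alternatives were other overlaps, window sizes, grids and signal thresholds.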

Additional observations from a re-analysis of the deposited data

How the results depend on the processing

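No paired analysis was possible because the deposited regions pool both ChIP samples and carry no sample numbers, and no library could be left out. Of 36 alternative counts, 29 stayed within 1.5 times of the number reported, and 7 did not. With only regions at or above the list median signal, Fgfr1, Spry1 and Spry2 kept 1 region each, Fgfr2 and Etv5 kept 0, and Dusp6 kept 10. With regions within 10 kb counted once, Dusp6 had 9. Of 34 alternative shares of windows with as many regions, 25 stayed within the 95% exact binomial interval of the reported share. With only regions at or above the median signal, the share rose to 25% at Fgfr1, 24.9% at Spry1 and 20.8% at Spry2, each for a count of 1. No share was computed for Fgfr2 and Etv5 there, which had no region left, and at Dusp6 it stayed at 0.353%, the Dusp6 window alone. With windows of all chromosomes it was 47.5% at Fgfr2, 11.1% at Spry2 and 17.1% at Etv5. Within 10 Mb on each side it was 21.6% at Etv5. At Dusp6 it was 2.22% there, again the Dusp6 window alone, now 1 of 45 windows, so this share moved only with the number of windows. With runs counted once it was 13.6% at Spry1. The cause of the other moves was not tested. Median signals moved by less than the SD over the regions at the 5 loci with more than 1 region, and the single Fgfr2 region leaves nothing to vary. The alternative that starts windows at the first listed region was added after seeing the data. Low read equivalents limit the ranking of single regions.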
